A study of Mus musculus with 6 samples.

Results

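The 5 genes described here, *Col1a1*, *Col1a2*, *Col3a1*, *Col5a1*, and *Col5a2*, encode chains of the fibrillar collagens I, III, and V. They were picked by name, with earlier results of these data known, and are 5 of the 12436 genes listed for each cell. The 5 were followed across cell types, diets, and days in single cells of the tibialis anterior muscle (TAM). The muscle came from male mice, 3 to 5 months old, on a B6;129 background with the allele Gt(ROSA)26Sor<tm1(Fucci2aR)Jkn, a cell cycle reporter, and without Cre. Hypothyroid mice ate an iodine-deficient diet with 0.15% propylthiouracil (PTU), a drug that blocks thyroid hormone synthesis, from 3 weeks before injury onward, and control mice ate a matched diet. Muscle was taken uninjured (day 0) or at 5 or 14 days post injury (dpi) with cardiotoxin, a snake toxin that destroys muscle fibers, given at 50 μg/ml into the right TAM. Each of the 6 combinations of diet and day was 1 library of 3 pooled mice. There were therefore no replicates, no difference between conditions could be tested, and diet cannot be told apart from differences between libraries or pools. Intervals below are 95% and cover counting error only.

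Fibrillar collagens form the rope-like fibers that carry tension in connective tissue. Type I collagen is a trimer of *Col1a1* and *Col1a2* chains, type III is a trimer of the *Col3a1* chain alone and is abundant in soft and healing tissue, and type V, made of *Col5a1* and *Col5a2* chains with or without others, sits inside the fibrils and starts their assembly. In muscle these genes are known as products of fibro-adipogenic progenitors (FAPs), the resident stromal cells that deposit provisional matrix after injury, and of tendon cells.

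A sequenced molecule is counted by its unique molecular identifier (UMI). Library depth was between 2283718 and 23496451 UMIs over 528 to 3294 cells, with a median per cell between 3634 and 8055 UMIs. The cell columns of 5 of the 6 libraries are several alphabetical runs of barcodes joined end to end. The hypothyroid library at 14 dpi is 1 run, with 0 later columns. The first run of each library was used, 11207 of 20269 columns, and the 9062 later columns, of unknown condition, served as an alternative. Across all columns 1696 barcodes stood in more than 1 library, and across the first runs 12 did. Whether a first run holds the condition of its label was not tested. Cells were gated by marker lists that hold no collagen gene, and a class is named with "-like". The gates gave 4795 FAP-like, 345 tendon-like, 1076 endothelial-like, 172 mural-like, 116 glial-like, 187 myogenic progenitor-like, 203 myocyte-like, 980 monocyte/macrophage-like, 951 T/NK-like, and 169 B-like cells, while 605 cells passed several lists and 1608 passed none. All 10 FAP markers, *Pdgfra* among them, were present in at least 10% of FAP-like cells, and *Gsn*, *Mfap5*, and *Clec3b* stood among their 10 leading genes by fold. Levels are given as CPM, the count of a gene per 1000000 UMIs summed over a pool of cells, which is a share of the captured RNA and not an amount per cell.

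The genes lie on 4 chromosomes. In GRCm39 coordinates with GENCODE gene models, *Col1a1* is at chr11:94827050-94843868 on the plus strand with 51 exons, and *Col1a2* is at chr6:4504814-4541555 on the plus strand with 52 exons. *Col3a1*, at chr1:45350698-45395840 on the plus strand with 51 exons, and *Col5a2*, at chr1:45412554-45542442 on the minus strand with 54 exons, are neighbours whose 3′ ends face each other, 16713 bases apart, with 0 protein-coding genes between. *Col5a1* is at chr2:27776397-27929526 on the plus strand with 66 exons. Because 1 priming site near the 3′ end is counted for each molecule, UMIs were not divided by transcript length.

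Promoter sequences from RefSeq were matched for 3 of the 5 genes, and the 150 bases before each start (GRCm38.p6, plus strand) are shown because the 5 genes were all highest on the same day. Capitals mark CCAAT, the letters bound by the factor NF-Y, which were found on the printed strand of 1 of the 3, 109 bases before the start of *Col1a2*.
*Col1a2*, chr6:4505468-4505617: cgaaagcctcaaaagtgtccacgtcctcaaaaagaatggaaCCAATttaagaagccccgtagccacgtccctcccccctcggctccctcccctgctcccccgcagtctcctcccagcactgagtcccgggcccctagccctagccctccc
*Col3a1*, chr1:45311388-45311537: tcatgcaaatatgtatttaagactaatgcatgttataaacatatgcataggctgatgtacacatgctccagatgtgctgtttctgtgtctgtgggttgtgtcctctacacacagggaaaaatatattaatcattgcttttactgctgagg
*Col5a1*, chr2:27886275-27886424: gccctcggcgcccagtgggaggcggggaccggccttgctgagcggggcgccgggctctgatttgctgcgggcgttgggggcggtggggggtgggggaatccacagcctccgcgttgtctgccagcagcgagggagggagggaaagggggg

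The letters CCAAT, those of a TATA box (TATAA), and those of a GC box (GGGCGG) were searched on both strands in the 250 bases before the start. TATAA was found in the *Col3a1* window at 117 bases on the plus strand and, overlapping it, at 118 bases on the minus strand. GGGCGG was found in the *Col1a2* window at 188 and 205 bases on the plus strand and in the *Col5a1* window at 73 bases on the plus and 205 bases on the minus strand. Among 32851 promoter windows of that length, 33.8% hold CCAAT, 22.8% TATAA, and 32.7% GGGCGG, and the matches are given as a description.

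FAP-like cells held most of the fibrillar collagen UMIs in every library, between 74.3% in control muscle at 14 dpi and 92.6% in control muscle at 5 dpi. Tendon-like cells, 345 of the 11207, had a share of the collagen UMIs between 3.32% (hypothyroid, 5 dpi) and 21.3% (control, 14 dpi). Over the 6 libraries together, the summed level of the 5 genes was 39184 CPM in tendon-like and 23238 CPM in FAP-like cells. Mural-like cells (the contractile cells around vessels), myogenic progenitor-like cells, and glial-like cells, the sheath cells of nerves, followed with 1995, 1853, and 1543 CPM, and their order differed between libraries. At 5 dpi in control muscle the mural-like pool had 4393 CPM (4038 to 4772), of which 1 cell held 49.8%, and the myogenic progenitor-like pool had 2373 CPM (2265 to 2485). At 14 dpi in control muscle the glial-like pool was the highest of the 3 with 2119 CPM (1870 to 2393), followed by the mural-like pool with 1779 CPM (1631 to 1937) and the myogenic progenitor-like pool with 1097 CPM (897 to 1328). Endothelial-like cells had 564 CPM and myocyte-like cells 375 CPM.

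Immune cells served as the background, because they are not a main source of these collagens and their UMIs can come from free RNA in the droplets. The summed level was 307 CPM in monocyte/macrophage-like, 168 CPM in B-like, and 160 CPM in T/NK-like cells. In the uninjured libraries 0 UMIs of the 5 genes were counted in 58 control and 31 hypothyroid immune cells, which allows levels of up to 14.6 and 19.6 CPM for any gene. After injury the immune level of the 5 genes was 0.371% of the FAP-like level in control and 1.18% in hypothyroid muscle at 5 dpi, and 2.56% and 0.871% at 14 dpi. Single cells weighed on these sums: 1 cell held 49.0% of the immune collagen UMIs of the control library at 14 dpi and 40.2% of those of the hypothyroid library at 5 dpi.

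**Figure D1:**
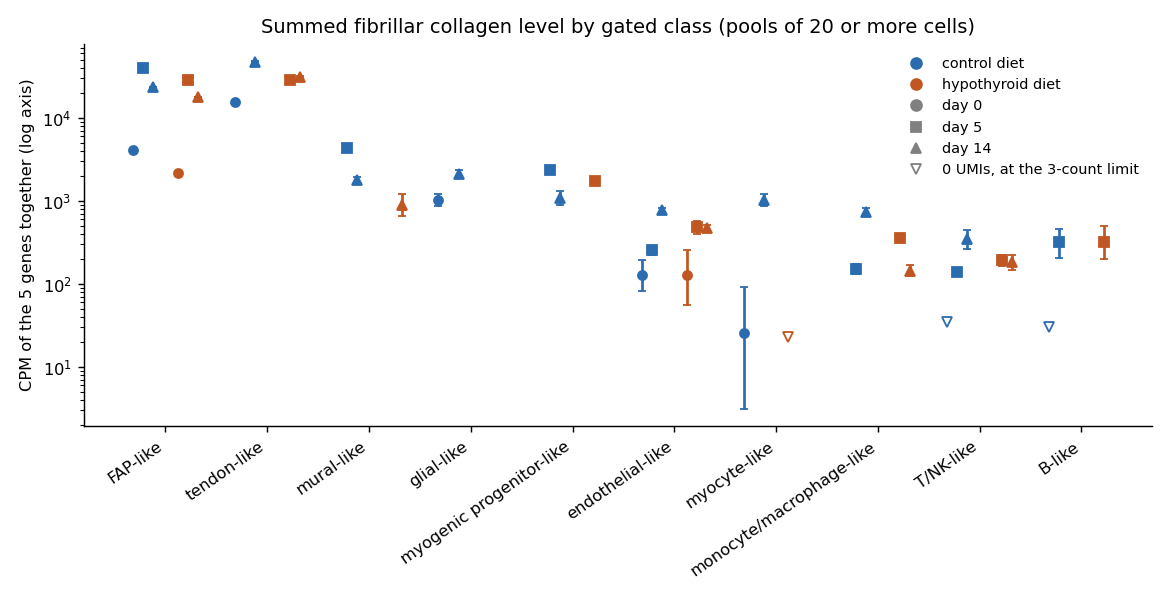
Summed CPM of the 5 genes (log axis) in each gated class, 1 point for each library with at least 20 cells of the class, colored by diet and shaped by day, with 95% counting intervals. Tendon-like pools and FAP-like pools after injury lie above every other pool, uninjured FAP-like cells (4129 and 2153 CPM) lie in the range of the mural-like pool of control muscle at 5 dpi (4393 CPM) and of myogenic progenitor-like cells, and open triangles mark pools with 0 UMIs at the 3-count limit.

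The make-up of the collagen UMIs differed between classes. Over the 6 libraries together, *Col3a1* was the largest part in FAP-like cells, 39.8%, followed by *Col1a1* with 29.5%, *Col1a2* with 22.6%, *Col5a2* with 5.20%, and *Col5a1* with 2.94%. The libraries at 5 dpi weigh most in these sums, and in the 2 uninjured libraries and in control muscle at 14 dpi *Col1a2* stood above *Col1a1*. In tendon-like cells the type I genes made up most of the UMIs, 42.0% *Col1a1* and 38.1% *Col1a2*, against 15.7% *Col3a1*. Uninjured control tendon-like cells had 7253 CPM of *Col1a1*, 7248 CPM of *Col1a2*, and 654 CPM of *Col3a1*, and the FAP-like cells of the same library had 938, 1254, and 1339 CPM. The ratio of *Col3a1* to *Col1a2* UMIs was thus 0.0902 (0.0755 to 0.107) in the tendon-like and 1.07 (1.03 to 1.11) in the FAP-like cells. The gap was smaller in the other tendon-like pools of at least 20 cells, where the ratio was 0.269 (0.262 to 0.276) in control and 0.550 (0.526 to 0.574) in hypothyroid muscle at 14 dpi and 0.863 (0.823 to 0.906) in hypothyroid muscle at 5 dpi, against 1.97, 1.87, and 1.55 in the FAP-like cells. The tendon-like pool held 48 cells, 1 of which gave 19.95% of its *Col1a1* UMIs.

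Over the 6 libraries together, myogenic progenitor-like and glial-like cells had *Col1a2* as their largest part. *Col1a2* was 40.8% of the collagen UMIs in the former and 46.2% in the latter, while *Col1a1* was 10.97% and 19.9%. The myogenic share rests on the libraries at 5 dpi: in control muscle at 14 dpi *Col1a2* had 13 UMIs against 45 of *Col3a1* and 35 of *Col5a2*. In myogenic progenitor-like cells at 5 dpi the ratio of *Col1a1* to *Col1a2* was 0.295 (0.254 to 0.342) in the control and 0.256 (0.221 to 0.295) in the hypothyroid library. In FAP-like cells of the same libraries it was 1.86 (1.84 to 1.88) and 1.46 (1.45 to 1.47), and in all immune cells together 1.16 (0.922 to 1.45) and 1.08 (0.957 to 1.22). The summed level of the myogenic pools, 2373 and 1753 CPM, was above the immune level of 148 and 336 CPM. *Col5a2* was 16.7% of the collagen UMIs of myogenic progenitor-like cells, against 5.20% in FAP-like cells.

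**Figure D2:**
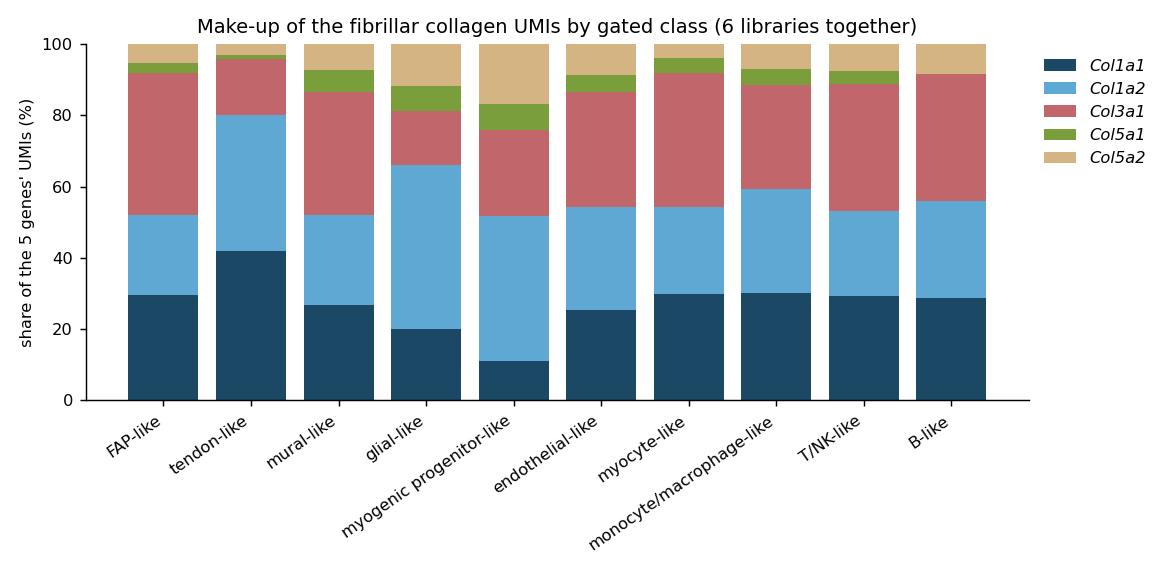
Stacked bars of the share (%) of each of the 5 genes in their summed UMIs, for each gated class over the 6 libraries together. The type I genes fill 42.0% and 38.1% of the tendon-like bar, and *Col1a2* fills 46.2% of the glial-like and 40.8% of the myogenic progenitor-like bar.

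In FAP-like cells, all 5 genes were at their highest level at 5 dpi in both diets and stayed above the uninjured level at 14 dpi. *Col1a1*, which gives the major chain of type I, was at 938, 14344, and 4867 CPM in control muscle at days 0, 5, and 14, and at 454, 9465, and 4295 CPM in hypothyroid muscle. *Col1a2*, the partner chain, was at 1254, 7727, and 5678 CPM in control muscle against 635, 6491, and 4262 CPM in hypothyroid muscle. With first-run columns the hypothyroid library was the lower on each day for both chains, but with all columns *Col1a1* was the higher there on each day (2.43, 1.05, and 1.12 times control) and *Col1a2* at day 0 (1.299 times). *Col1a1* had the steeper course of the pair: its ratio of 5 dpi to day 0 was 15.3 (14.8 to 15.8) in control and 20.8 (19.4 to 22.4) in hypothyroid muscle, against 6.16 (5.997 to 6.33) and 10.2 (9.60 to 10.9) for *Col1a2*.

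*Col3a1*, the type III gene, was at 1339, 14756, and 11198 CPM in control muscle against 738, 10039, and 7991 CPM in hypothyroid muscle. It was the gene with the highest level of all 12436 in FAP-like cells of control muscle at 5 dpi, and ranked 112 in uninjured control muscle. *Col5a1* was at 175, 1304, and 650 CPM in control and 97.9, 893, and 352 CPM in hypothyroid muscle. *Col5a2* was at 423, 1867, and 1147 CPM in control muscle against 228, 1533, and 951 CPM in hypothyroid muscle. The type V genes thus followed the same order of days at a lower level, and their hypothyroid values were again the lower on each day with first-run columns, while all columns turned *Col5a1* and *Col5a2* at day 0 and *Col5a2* at 14 dpi.

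**Figure D3:**
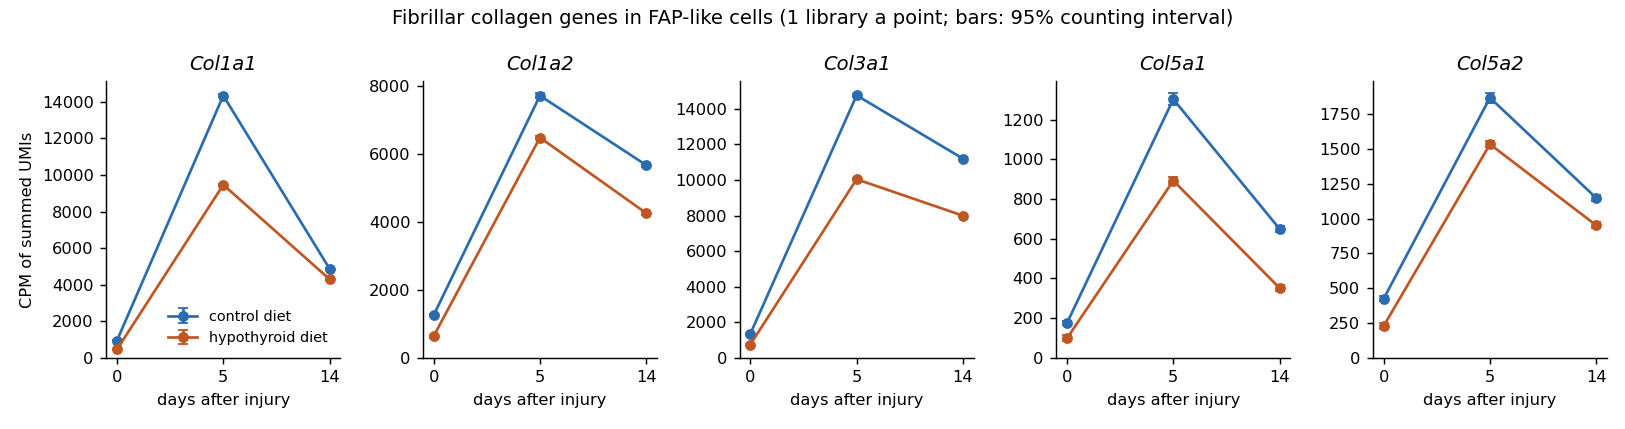
CPM of summed UMIs (linear axes from 0) of each gene in FAP-like cells at 0, 5, and 14 days after injury, with a line for each diet, 1 library a point, and 95% counting intervals that are mostly smaller than the points. Each line peaks at day 5, and the hypothyroid line lies below the control line on each day, with first-run columns only.

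Between day 0 and 5 dpi, 5 of the 5 genes were at least 2-fold higher in control and 5 of the 5 in hypothyroid muscle. Of all genes compared in FAP-like cells (those with 100 UMIs or more in whichever of 2 pools was higher), 18.6% were 2-fold higher and 11.7% 2-fold lower in control, and 17.1% and 16.9% in hypothyroid muscle. From 5 to 14 dpi, 2 of the 5 genes were at least 2-fold lower in each diet, *Col1a1* with ratios of 0.339 (0.335 to 0.343) and 0.454 (0.448 to 0.459) and *Col5a1* with 0.498 (0.482 to 0.515) and 0.394 (0.378 to 0.410). Of all genes 13.4% were 2-fold lower and 8.58% 2-fold higher in control over that interval, and 14.3% and 11.8% in hypothyroid muscle. *Col3a1* kept the larger part of its 5 dpi level, with ratios of 0.759 (0.752 to 0.766) and 0.796 (0.788 to 0.803). The summed level was 4129, 39998, and 23541 CPM in control muscle against 2153, 28421, and 17849 CPM in hypothyroid muscle. Its ratio of 5 dpi to day 0 was 9.69 (9.55 to 9.83) and 13.2 (12.8 to 13.7), which with all columns became 2.64 and 1.499.

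The make-up shifted with the day. The ratio of *Col1a1* to *Col1a2* UMIs in FAP-like cells was 0.749 (0.719 to 0.779) in control and 0.715 (0.650 to 0.787) in hypothyroid muscle at day 0. It was 1.86 and 1.46 at 5 dpi, and 0.857 (0.846 to 0.868) and 1.01 (0.993 to 1.02) at 14 dpi. The ratio of *Col3a1* to *Col1a2* was 1.07 and 1.16 at day 0, 1.91 and 1.55 at 5 dpi, and 1.97 and 1.87 at 14 dpi. Type I transcripts were thus weighted to the *Col1a1* chain at 5 dpi, and the *Col3a1* part was larger at 14 dpi than in uninjured muscle.

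Against control, all 15 ratios of the 5 genes on the 3 days were below 1 in FAP-like cells, with 15 intervals below 1. This holds for the first-run columns. The median ratio of all genes was itself below 1, at 0.970, 0.823, and 0.963 on days 0, 5, and 14. The share of all genes with a ratio below 1 was not computed. With all columns 8 of the 15 collagen ratios turned above 1. These were all 5 genes at day 0 (1.29 to 2.43), *Col1a1* at 5 and 14 dpi (1.05 and 1.12), and *Col5a2* at 14 dpi (1.02). At day 0 the first-run ratios were 0.484 (0.447 to 0.524) for *Col1a1*, 0.507 (0.474 to 0.542) for *Col1a2*, 0.551 (0.517 to 0.586) for *Col3a1*, 0.561 (0.470 to 0.666) for *Col5a1*, and 0.538 (0.480 to 0.602) for *Col5a2*. *Col1a1* was 2-fold lower. Of 5304 genes compared on that day 1.81% were at least 2-fold lower and 0.924% 2-fold higher, and between 1.64% and 3.34% of genes had a ratio below those of the 5. The median ratio of all genes was 0.970. For the summed level the ratio was 0.521 (0.503 to 0.541), and with all columns it was 1.61, so the direction at day 0 holds for the first runs and turns when the later columns are added.

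At 5 dpi the ratios were 0.660 (0.654 to 0.666) for *Col1a1*, 0.840 (0.830 to 0.850) for *Col1a2*, 0.680 (0.674 to 0.686) for *Col3a1*, 0.685 (0.665 to 0.705) for *Col5a1*, and 0.821 (0.802 to 0.841) for *Col5a2*. None of the 5 was 2-fold lower, against 6.11% of 7870 genes (2.29% were 2-fold higher). Between 24.4% and 52.4% of genes had a ratio below those of the 5. The median ratio of all genes was 0.823 on this day, a shift of -0.28 on the log2 scale. Relative to it, *Col1a2* was at 1.02 and the summed level at 0.863. Without that correction the summed ratio was 0.711 (0.707 to 0.714), and with all columns 0.914.

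At 14 dpi the ratios were 0.882 (0.870 to 0.895) for *Col1a1*, 0.751 (0.740 to 0.761) for *Col1a2*, 0.714 (0.707 to 0.721) for *Col3a1*, 0.541 (0.518 to 0.566) for *Col5a1*, and 0.829 (0.805 to 0.853) for *Col5a2*. None was 2-fold lower, against 3.61% of 7333 genes, with 1.01% 2-fold higher. The summed ratio was 0.758 (0.753 to 0.763), and with all columns 1.01. On this day all columns added cells to the control side only, from 1579 to 3233 FAP-like cells. Hypothyroid muscle had 863 in both settings. *Col5a1* had the lowest ratio of the 5, and 4.68% of genes had a lower one. For *Col3a1*, *Col1a2*, *Col5a2*, and *Col1a1* that share was 14.7%, 18.8%, 29.0%, and 36.8%. The median ratio of all genes was 0.963 on this day. Depth moved along with these results: the median FAP-like cell held 5585, 12744, and 5624 UMIs in control and 4396, 13974, and 9525 UMIs in hypothyroid muscle at days 0, 5, and 14. After all cells were thinned to 2000 UMIs the summed ratios were 0.574, 0.758, and 0.707. Immune RNA moved too, as 9.22% of FAP-like cells of control and 3.96% of hypothyroid muscle at 5 dpi held 3 or more pan-immune genes (0.253% to 1.04% in the other libraries), and without cells that held 2 or more the ratio at 5 dpi was 0.705.

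FAP-like cells were next split into states by genes outside the collagens, in the order cycling, injury matrix (at least 2 of *Cthrc1*, *Tnc*, and *Lrrc15*), *Pi16*-positive (the gene marks adventitial stromal cells), and *Smoc2*-positive without *Pi16*. Injury matrix cells were 38.6% of FAP-like cells in control and 55.9% in hypothyroid muscle at 5 dpi, 4.43% and 11.7% at 14 dpi, and 1 of 789 and 0 of 319 cells at day 0. Cycling cells were 27.7% and 18.7% at 5 dpi. Cells were not thinned for this split, so a deeper cell can pass the markers of a state more easily. The median FAP-like cell at 14 dpi held 5624 UMIs in control and 9525 UMIs in hypothyroid muscle. The part of depth in the state shares and levels was not tested. The injury matrix state had the highest summed collagen level of the states at 5 and 14 dpi, 48071 and 33860 CPM in control muscle against 31723 and 29051 CPM in hypothyroid muscle. *Pi16*-positive cells had 3700, 34687, and 21549 CPM at days 0, 5, and 14 in control and 1955, 22292, and 15909 CPM in hypothyroid muscle. *Smoc2*-positive cells without *Pi16* took another course in control muscle, with 4875, 21284, and 28080 CPM, so that their highest summed level was at 14 dpi. Their ratio of 14 to 5 dpi was 1.32 (1.28 to 1.36) for the sum, 1.63 (1.51 to 1.75) for *Col1a2*, and 1.60 (1.53 to 1.69) for *Col3a1*, from 34 cells at 5 dpi, against 0.858 (0.810 to 0.909) for *Col1a1*. In hypothyroid muscle the same state had 2745, 20368, and 14919 CPM.

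The states differed in make-up at 5 dpi. In *Pi16*-positive cells of control muscle *Col3a1* was at 17347 CPM and *Col1a1* at 9052 CPM, whereas in injury matrix cells of the same library *Col1a1* was at 17705 and *Col3a1* at 16841 CPM, and in cycling cells at 13573 and 12615 CPM. The hypothyroid library had the same order of the pair in *Pi16*-positive cells, 10347 CPM of *Col3a1* and 5893 CPM of *Col1a1*. In its injury matrix cells *Col3a1* stood slightly above *Col1a1*, 11013 and 10652 CPM, which is the reverse of the control order.

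Within states, read with first-run columns only, 43 of 45 diet ratios were below 1 and 40 of the 45 intervals lay below 1. The median diet ratio of all genes in FAP-like cells was 0.970, 0.823, and 0.963 at days 0, 5, and 14. The same was not computed within states. In *Pi16*-positive cells 15 of 15 diet ratios of the collagen genes were below 1, between 0.411 and 0.846. In cycling cells at 5 dpi 5 of 5 were, between 0.620 and 0.830, and in injury matrix cells 10 of 10, between 0.602 and 0.993. In *Smoc2*-positive cells without *Pi16* it was 13 of 15, and the ratios at 5 dpi were 1.004 (0.937 to 1.08) for *Col1a1*, 1.07 (0.980 to 1.17) for *Col1a2*, and 0.891 (0.836 to 0.948) for *Col3a1*, in pools of 34 control and 59 hypothyroid cells. The summed ratio of that state was 0.957 (0.920 to 0.995) at 5 dpi, above its ratios of 0.563 (0.532 to 0.595) at day 0 and 0.531 (0.522 to 0.540) at 14 dpi. In injury matrix cells the summed ratio was 0.660 (0.655 to 0.665) at 5 dpi and 0.858 (0.844 to 0.872) at 14 dpi.

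**Figure D4:**
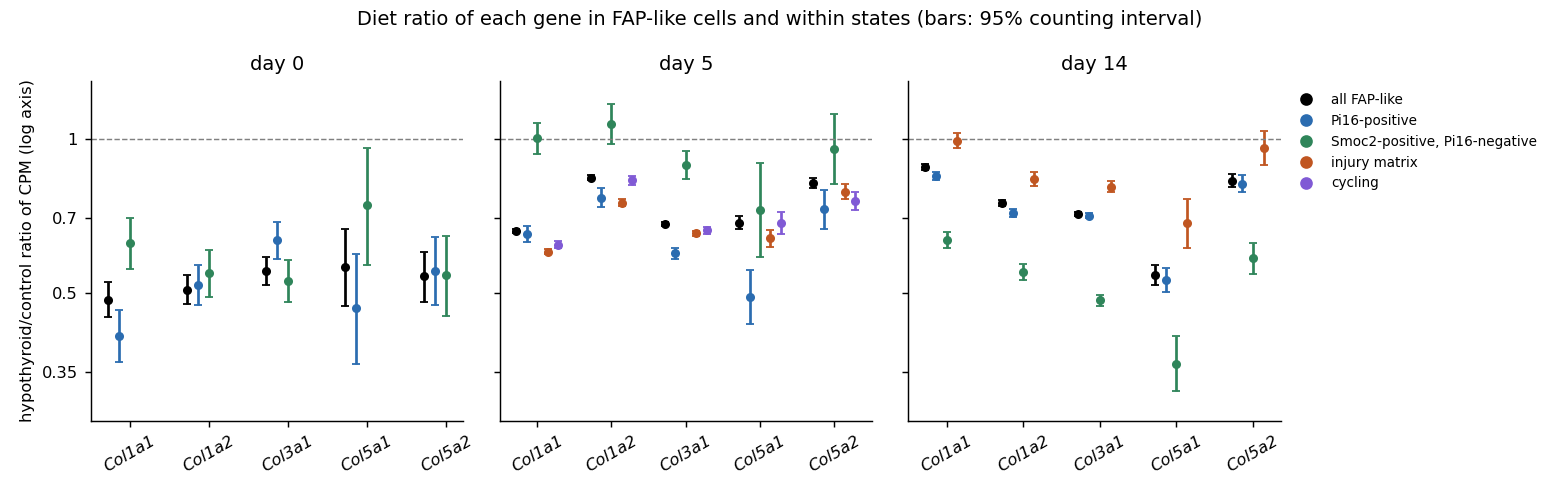
Hypothyroid/control ratio of CPM (log axis, dashed line at 1) for each gene on days 0, 5, and 14, in all FAP-like cells and within states, with 95% counting intervals. The points lie below 1 except *Col1a1* (1.004) and *Col1a2* (1.07) of *Smoc2*-positive, *Pi16*-negative cells at day 5, and the lowest point is *Col5a1* of the same state at day 14 with 0.363. All points are from first-run columns.

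The share of FAP-like cells with a UMI was compared after each cell was thinned to 2000 UMIs, which left out 27 to 252 shallower cells a library. In uninjured muscle the thinned share for *Col1a1* was 64.9% (61.3 to 68.4) in control and 50.0% (44.0 to 56.0) in hypothyroid muscle, and the unthinned shares were 81.2% and 70.5%. For *Col3a1* they were 60.8% (57.1 to 64.4) and 41.9% (36.1 to 47.9), with 75.4% and 54.2% unthinned. At 5 dpi *Col1a1*, *Col1a2*, and *Col3a1* were found in 97.0% to 98.4% of thinned cells in both diets. *Col5a1* stayed below that, with 82.1% (77.9 to 85.8) and 75.5% (72.3 to 78.5) at 5 dpi and 66.3% (63.7 to 68.9) and 41.2% (37.8 to 44.6) at 14 dpi. Its unthinned shares were 93.9% and 91.7% at 5 dpi and 83.7% and 74.5% at 14 dpi. At 14 dpi thinning left out 252 control and 47 hypothyroid cells. T/NK-like cells, which should lack the genes, had a *Col1a1* UMI in 7.97% of thinned and 15.9% of unthinned cells in control muscle at 5 dpi, and in 10.8% and 26.3% in hypothyroid muscle.

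Cells of the same library differed widely. In uninjured control muscle the thinned *Col3a1* count of FAP-like cells was 0 at percentile 10, 1 at the median, and 8 at percentile 90. At 14 dpi it was 2, 16, and 55 in control and 0, 8, and 41 in hypothyroid muscle. Within libraries the cell-by-cell Spearman correlation of thinned counts was between 0.43 and 0.84 for the pairs among *Col1a1*, *Col1a2*, and *Col3a1*, and between 0.15 and 0.37 for *Col5a1* with *Col5a2*. Cells of a library share its depth and free RNA, so these correlations are a description.

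Tendon-like cells were compared at 14 dpi, where both pools held at least 20 cells (195 control, 53 hypothyroid). *Col1a1* was at 20556 CPM in control muscle against 11569 CPM in hypothyroid muscle, a ratio of 0.563 (0.547 to 0.579), and *Col1a2* at 20241 and 11646 CPM, a ratio of 0.575 (0.559 to 0.592). *Col3a1* was on the other side, at 5442 and 6401 CPM with a ratio of 1.18 (1.13 to 1.23). The intervals of *Col5a1* (0.847 to 1.16) and *Col5a2* (0.905 to 1.10) include 1. The pools differed in cell number, and 1 cell held 12.6% of the *Col1a1* UMIs of the hypothyroid pool. These ratios, and those of myogenic progenitor-like cells below, were read with first-run columns only.

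In myogenic progenitor-like cells at 5 dpi (59 control, 80 hypothyroid cells) *Col1a2* was at 1061 CPM in control muscle against 727 CPM in hypothyroid muscle, a ratio of 0.685 (0.623 to 0.754). *Col5a2* was at 374 and 286 CPM, a ratio of 0.764 (0.653 to 0.895). The control pool at 14 dpi held 23 cells, in which *Col3a1* was at 470 CPM, above the immune level of 146 CPM in that library, and *Col1a2* at 136 CPM, below the immune level of 187 CPM. In that library 1 immune cell held 61.1% of the 108 immune *Col1a2* UMIs. Whether the myogenic *Col1a2* value lies above background was not tested.

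The other genes of the collagen pathway were read in FAP-like cells from lists set by function. Counts past 2-fold at 5 dpi stand against 18.6% of all genes higher and 11.7% lower in control, and 17.1% and 16.9% in hypothyroid muscle. The median of the 5 genes was 7.46 for the ratio of 5 dpi to day 0 in control and 10.2 in hypothyroid muscle, beside 1.07 and 0.922 for all genes. The latter is a shift of -0.12 on the log2 scale. For the diet ratio the median of the 5 was 0.538, 0.685, and 0.751 at days 0, 5, and 14, beside 0.970, 0.823, and 0.963 for all genes. Diet counts past 2-fold stand against 0.924% of all genes higher and 1.81% lower at day 0. At 5 dpi these shares were 2.29% and 6.11%, and at 14 dpi 1.01% and 3.61%. The lists were read with first-run columns only, and the all-column alternative was not run for them.

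The other fibrillar collagens were few: of 6 listed, 3 passed 100 UMIs at 5 dpi, *Col5a3*, *Col11a1*, and *Col27a1*, and 3 of 3 were 2-fold higher at 5 dpi than at day 0 in each diet. *Col5a3*, a further type V chain, was at 260, 578, and 566 CPM in control muscle against 162, 530, and 457 CPM in hypothyroid muscle. Genes of prolyl and lysyl hydroxylation and folding, the steps that let collagen form a stable helix in the endoplasmic reticulum, were 2-fold higher at 5 dpi for 13 of 17 in control muscle, against 12 of 17 under the hypothyroid diet. *Serpinh1*, the collagen chaperone HSP47, was at 570, 2874, and 832 CPM in control muscle against 472, 1491, and 630 CPM in hypothyroid muscle, with a diet ratio of 0.519 (0.508 to 0.530) at 5 dpi. The diet ratio of that list at 5 dpi was below 1 for 15 of 17, with a median of 0.721 beside 0.823 for all genes, and 2 of 17 were 2-fold lower, the hydroxylase subunit *P4ha3* at 0.451 (0.399 to 0.510) and the glycosyltransferase *Colgalt1* at 0.464 (0.434 to 0.497).

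Crosslinking genes encode the lysyl oxidases, which join collagen molecules outside the cell. Of 4 that passed, 3 were 2-fold higher at 5 dpi in each diet. The median diet ratio of the 4 at 5 dpi was 0.567, beside 0.823 for all genes. *Loxl1* was lower in hypothyroid muscle on each day, with ratios of 0.469 (0.377 to 0.580), 0.468 (0.446 to 0.491), and 0.552 (0.517 to 0.590). *Lox* was at 1246 CPM in control muscle against 1195 CPM in hypothyroid muscle at 5 dpi, a ratio of 0.959 (0.933 to 0.987). The propeptide removal genes trim procollagen so that fibrils can form, and 1 of 5 was 2-fold higher and 1 of 5 lower at 5 dpi in control muscle, against 4 and 1 of 6 in hypothyroid muscle. The control counts are near the 18.6% and 11.7% of all genes. Between diets at 5 dpi, 1 of 6 was 2-fold higher and 0 lower, beside 2.29% and 6.11% of all genes. At 14 dpi 1 of 5 was higher and 2 lower, beside 1.01% and 3.61%. The higher one on both days was *Tll1*, a protease of this step at a low level (6.87 and 16.6 CPM at 5 dpi), with ratios of 2.42 (1.72 to 3.47) and 2.74 (1.91 to 3.99). *Adamts2*, a protease of the same step, had ratios of 0.343 (0.263 to 0.439), 0.609 (0.561 to 0.661), and 0.381 (0.3504 to 0.413), 2-fold lower on days 0 and 14. *Pcolce2*, an enhancer of the same step, was at 698, 140, and 524 CPM in control muscle against 529, 103, and 261 CPM in hypothyroid muscle, lowest at 5 dpi, where the 5 collagen genes were highest.

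Of the fibril-associated and fibril-binding matrix genes, 9 of 17 were 2-fold higher and 1 lower at 5 dpi in control muscle, and 11 and 3 of 17 in hypothyroid muscle. Their median diet ratio at 5 dpi was 1.04, beside 0.823 for all genes, with 7 of 17 below 1. *Sparc*, a collagen-binding matrix protein, was at 1911, 8547, and 6438 CPM in control muscle against 907, 7751, and 4522 CPM in hypothyroid muscle. Its diet ratios were 0.475 (0.449 to 0.502), 0.907 (0.897 to 0.917), and 0.702 (0.693 to 0.712). *Postn*, periostin of healing matrix, was at 13.8, 4312, and 666 CPM in control and 22.3, 4290, and 1744 CPM in hypothyroid muscle, a diet ratio of 2.62 (2.54 to 2.70) at 14 dpi. *Thbs1*, thrombospondin 1, was 2.06 (2.01 to 2.11) on that day, and these were the 2 genes of 18 that were 2-fold higher. On the same day 1 of the 18 was 2-fold lower, and of all genes 1.01% were higher and 3.61% lower.

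Of the collagen receptors, *Ddr2*, a kinase that binds fibrillar collagen, was at 562, 231, and 524 CPM in control muscle against 311, 126, and 434 CPM in hypothyroid muscle. It was lowest at 5 dpi in both diets, the day on which the collagen genes were highest. *Mrc2*, an uptake receptor for collagen fragments, was highest at 5 dpi, at 241 CPM in control muscle against 198 CPM in hypothyroid muscle. Of 6 receptors that passed, 2 were 2-fold higher and 2 lower at 5 dpi in each diet (18.6% and 11.7% of all genes in control, 17.1% and 16.9% in hypothyroid muscle), and 0 were 2-fold higher or lower between diets at 5 dpi. Of the degradation genes, 2 of 7 were 2-fold higher and 2 lower at 5 dpi in control muscle, and 4 and 2 of 8 in hypothyroid muscle, beside the same shares of all genes. The protease *Mmp2* was at 506, 364, and 1031 CPM in control muscle against 433, 334, and 1066 CPM in hypothyroid muscle, and *Timp1*, an inhibitor of such proteases, at 16.1, 2112, and 246 CPM and 14.3, 1632, and 427 CPM.

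The TGF-beta list holds ligands, receptors, and Smads of a pathway known to drive collagen transcription, the latent-complex proteins *Ltbp1* and *Ltbp3*, and the corepressors *Ski* and *Skil*, which oppose it. At 5 dpi 1 of 13 was 2-fold higher and 1 lower in control muscle, with a median of 0.918, and 2 were higher and 6 lower in hypothyroid muscle, with a median of 0.570. Its median diet ratio at 5 dpi was 0.767, beside 0.823 for all genes, and *Smad3* was at 0.381 (0.300 to 0.482) and *Ski* at 0.461 (0.413 to 0.515). Of the transcriptional regulators, 4 of 16 were 2-fold higher and 2 lower at 5 dpi in control muscle, against 1 and 5 of 17 in hypothyroid muscle. The control counts are near the shares of all genes, 18.6% and 11.7%, and those of hypothyroid muscle stand beside 17.1% and 16.9%. *Runx2* was the 1 that was so in both, at 14.4 and 86.5 CPM in control and 12.4 and 96.9 CPM in hypothyroid muscle at days 0 and 5. The NF-Y subunits *Nfya*, *Nfyb*, and *Nfyc* were between 13.1 and 36.0 CPM in all 6 libraries.

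**Figure D5:**
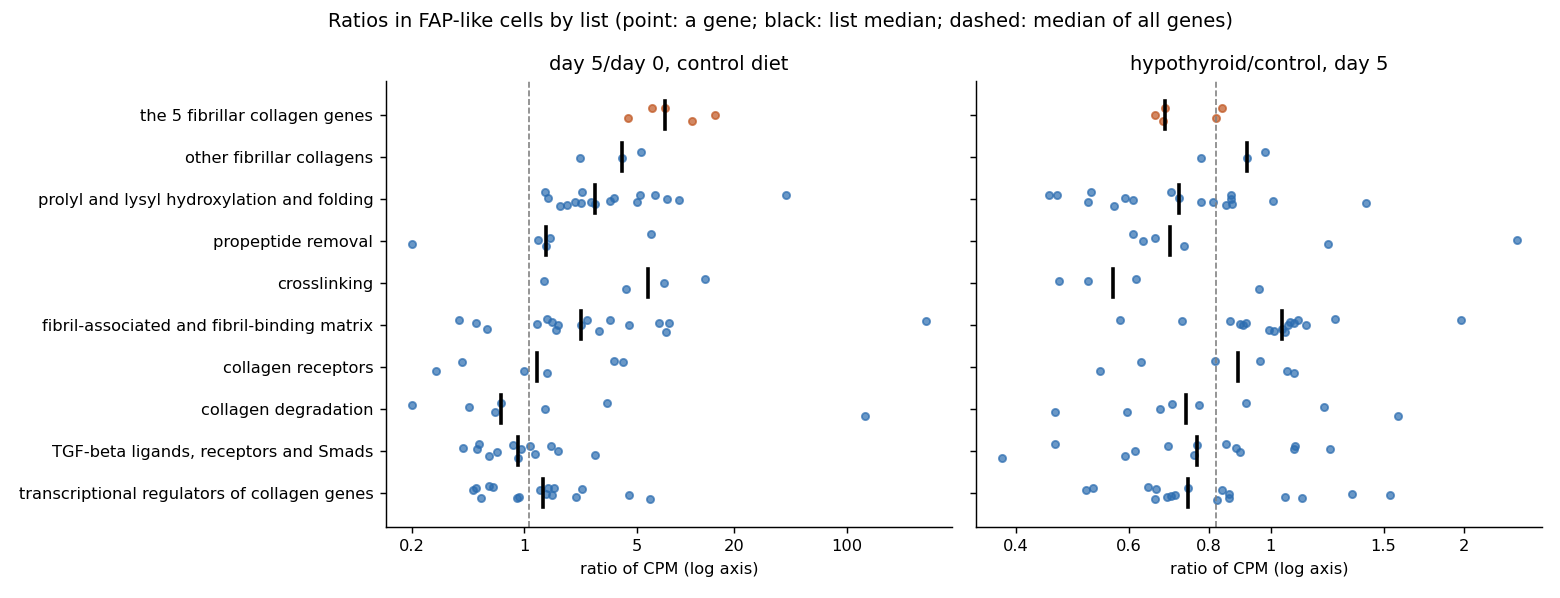
Ratio of CPM (log axis) of 5 dpi to day 0 in control muscle (left) and of hypothyroid to control muscle at 5 dpi (right) in FAP-like cells, 1 point for each gene that passed the 100 UMI minimum, by list. Black bars are list medians and dashed lines the median of all genes, and the 5 collagen genes have a median of 7.46 on the left and 0.685 on the right.

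The genes most alike in pattern were sought by the mean Pearson correlation of log2 levels with the 5. Over 39 pools of class and library, these were *Col6a1* with a mean of 0.90, *Bgn* with 0.90, *Col6a2* with 0.88, *Efemp2* with 0.88, and *Ccdc80* with 0.87. Among the 5 themselves the correlation was between 0.82 (*Col1a1* with *Col5a1*) and 0.96 (*Col1a1* with *Col1a2*). Over 18 pools of FAP-like state and library they were *Sparc* with 0.97, *C1qtnf6* with 0.96, *Pxdn* with 0.95, *Ccdc80* with 0.93, and *Galnt10* with 0.92. The pools share libraries and depth, so the values describe likeness of pattern and carry no p-value.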

How the data were processed

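Single-cell RNA from TAM was captured with a 3′ droplet kit (10x, V3), 1 library of 3 pooled mice for each diet and day. The authors aligned reads in Partek Flow with the Cell Ranger aligner to mm39, removed low-quality cells, and deposited log2(CPM + 1) per cell, with a pseudocount of 1. UMIs were recovered by taking the most frequent CPM above 0 of each cell as 1 UMI, which left 99.934% of 39334018 values whole within 0.05 UMIs or, for larger values, 0.0001 of the value (98.71% with the smallest value). The design foresaw the first alphabetical run of columns, and the later runs were an alternative.

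A cell joined a class with at least 3 markers of its list and 2 more than of any other. Myocyte-like cells had over 10% of UMIs from sarcomere genes. Tendon-like cells had *Tnmd* and at least 4 of 8 tendon markers. The markers were set beforehand, the cutoffs after the data were seen. No doublets were removed, and cells that passed several lists were set aside. UMIs were summed over pools of at least 20 cells, with exact Poisson intervals for CPM, exact binomial intervals for ratios, and Clopper-Pearson intervals for shares, all at 95%. Limits for a count of 0 use 3 counts. A gene counted as past 2-fold only with 100 UMIs or more in one of the pools. No test was run, since each group is 1 library. UMI recovery and intervals were tested on simulated data. The simulated pool counts were Poisson draws, so the check of the intervals does not cover spread between cells.

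The named genes were the 5 genes, genes of the pathway lists (first those past 2-fold or with the highest level of their list), and the 5 genes most alike. The 5 genes and the lists were chosen with earlier results of these data known. *Tll2*, *Mep1a*, *Mep1b*, *Mmp8*, and *Tcf21* of the lists were not analysed here. Gene positions are from GRCm39 with GENCODE models and promoters from RefSeq on GRCm38.p6. Python 3.11.15 was used with numpy 2.4.6, scipy 1.17.1, pandas 2.3.3, and matplotlib 3.10.9.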

Additional observations from a re-analysis of the deposited data

Results flagged for a closer look

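In 3 classes the diet ratio of a collagen gene lay above 1 at 5 dpi and below 1 at 14 dpi, with counting intervals that excluded 1 on both days. The difference between days was not tested, as each group is 1 library. In monocyte/macrophage-like cells the ratios at 5 and 14 dpi were 2.25 and 0.0532 for *Col1a1*, 3.05 and 0.179 for *Col1a2*, and 1.84 and 0.448 for *Col3a1*. In that class 1 cell held 61.3% of the *Col1a1* UMIs of the hypothyroid library at 5 dpi and 1 cell 82.9% of those of the control library at 14 dpi. Over all immune cells together, 1 cell held 47.0% of *Col1a2* and 1 cell 27.7% of *Col3a1* UMIs in the former library. In the latter these shares were 61.1% and 9.52%. In endothelial-like cells the ratios were 2.97 and 0.311 for *Col1a1* and 1.63 and 0.568 for *Col1a2*, and 1 of 33 hypothyroid cells at 5 dpi held 79.5% of the *Col1a1* UMIs. In T/NK-like cells *Col3a1* was at 1.60 and 0.559, from 57 and 114 UMIs at 5 dpi and 38 and 22 UMIs at 14 dpi in the hypothyroid and control libraries. The part of free RNA and of doublets in these values was not tested.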

How the results depend on the processing

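No paired analysis was possible because each combination of diet and day is 1 library. The 7 summed ratios of FAP-like cells are given in the order hypothyroid/control at days 0, 5, and 14, then 5 dpi to day 0 and 14 to 5 dpi in control, then the same in hypothyroid muscle. As reported they were 0.521, 0.711, 0.758, 9.69, 0.589, 13.2, and 0.628. With all columns of each library they were 1.61, 0.914, 1.01, 2.64, 0.558, 1.499, and 0.616, so 2 of the 3 diet ratios turned. As a mean over cells of CPM they were 0.589, 0.769, 0.697, 8.59, 0.632, 11.2, and 0.572. In cells thinned to 2000 UMIs they were 0.574, 0.758, 0.707, 9.06, 0.617, 11.96, and 0.576. With tendon-like cells kept in the pool, an alternative chosen after seeing the data, they were 0.492, 0.702, 0.701, 8.72, 0.655, 12.4, and 0.654. Where fewer moved beyond the counting interval, the moved ones follow in the same order. With the smallest value as 1 UMI, all but the diet ratio at 14 dpi moved, to 0.497, 0.722, 10.2, 0.580, 14.9, and 0.612. Centred on the median gene, all but that at day 0 moved, to 0.863, 0.787, 9.04, 0.609, 14.3, and 0.604. With pan-immune cells left out, also chosen after seeing the data, the diet ratio at 5 dpi was 0.705, both ratios in control 9.91 and 0.575, and that of 14 to 5 dpi in hypothyroid muscle 0.622. With the stricter gate (5 markers, a lead of 3), the diet ratio at 14 dpi was 0.764 and the last ratio 0.638.

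For single genes, 9 of 315 values turned. With all columns the diet ratios at day 0 were 2.43 for *Col1a1*, 1.299 for *Col1a2*, 1.34 for *Col3a1*, 2.32 for *Col5a1*, and 1.29 for *Col5a2*. *Col1a1* was at 1.05 at 5 dpi and 1.12 at 14 dpi, and *Col5a2* at 1.02 at 14 dpi. Centred on the median gene, *Col1a2* was at 1.02 at 5 dpi. Averaging the deposited log2(CPM + 1) of single cells and turning the difference back to a ratio kept every direction but moved values by up to 12.3-fold: the ratios of 5 dpi to day 0 were then 10.04 to 50.8 in control and 30.5 to 168 in hypothyroid muscle, and the diet ratios 0.215 to 0.829. Beyond the turned values, 186 values moved by more than the counting interval and kept their direction, and 120 did not move beyond it. The all-column alternative adds cells of unknown condition by construction, to every library but hypothyroid muscle at 14 dpi. Otherwise the cause was not tested. Depth limits the uninjured hypothyroid library most, with 3473 collagen UMIs in its FAP-like cells.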
